A study of Mus musculus with 6 samples.

Results

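The genes described here encode the vacuolar ATPase and the lysosome of GLUTag cells, an enteroendocrine line from mouse used as a model of the GLP-1 secreting L-cell. They are 41 of the 54281 genes of the count matrix, chosen by symbol and function and not by their level. They comprise 10 genes for V0 subunits, 11 for V1 subunits, 2 for accessory proteins, 6 for cathepsins, 3 for lysosomal membrane proteins, 6 for other hydrolases and lipid carriers, and 3 for regulators of lysosome genes and lysosomal calcium. The data are 6 RNA-sequencing libraries of 1 condition, made with a kit that reads the 3′ end of polyadenylated transcripts, and each transcript therefore counts alike whatever its length. GLUTag cells derive from a tumour of mice that carried a viral oncogene under the proglucagon promoter, and the labels name no treatment. They were harvested after 48 h on Matrigel in DMEM with 1 g/L glucose, GlutaMAX and 10% FBS. Plate 1 gave 3 libraries at passage 23 and plate 2 gave 3 libraries at passage 27, and the effects of plate and of passage cannot be told apart. The labels do not say whether the libraries of a plate came from separate wells or cultures. The p-values measure only the spread between these libraries, which may be technical.

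The V-ATPase is a rotary proton pump. Its V1 sector, on the cytosolic side, hydrolyses ATP in a ring of A and B subunits and turns a central stalk, and its V0 sector, in the membrane, carries protons across on a ring of c subunits past the a subunit. The pump acidifies lysosomes, where cathepsins and other hydrolases need a low pH, and also the secretory granules of endocrine cells, where acidity is needed for prohormone processing and storage. The transcription factors TFEB and TFE3 drive many lysosome and V-ATPase genes through promoter elements with the core CACGTG, which several other factors also bind.

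The libraries held between 21399987 and 36488198 counts, and values are given as counts per 1000000 counts of the library (CPM). The plate 1 libraries are replicates 1, 2 and 3, and those of plate 2, whose columns are numbered within the plate and could not be matched to the replicate numbers of the labels, are called the lowest, middle and highest plate 2 library after their totals. The enteroendocrine markers were all detected (9 of 9) and summed to between 5695 and 6589 CPM on plate 1 and between 6723 and 7624 CPM on plate 2. Macrophage markers, of interest because macrophages are rich in lysosomes, summed to at most 3.524 CPM over 8 genes. Of these, 2 were above 3 counts in all libraries, Itgam (0.7116 to 1.918 CPM) and Cd68 (0.2501 to 0.9592 CPM). Csf1r, Adgre1 and Fcgr3 had no more than 3 counts in any library. Of 6 osteoclast or intercalated cell markers, cells that carry V-ATPase at the surface, 1 was above 3 counts in all libraries, and Foxi1 and Slc4a1 were at 0. Fibroblast markers summed to between 5.08 and 7.543 CPM, of which Col1a2 had 4.497 to 6.572 CPM. Markers of other gut epithelium summed to between 3.531 and 7.776 CPM. The middle plate 2 library stood apart from the rest: of 15669 genes tested, 5.71% lay more than 0.5 on the log2 scale above the mean of the remaining plate 2 libraries, and 17.5% lay as far below it. The subunit levels, the comparison of plates and the levels of the 9 genes for which this library was flagged as an outlier are therefore also given without it. The means of other genes, Psap among them, are given with it only.

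The CACGTG core was looked for in the RefSeq promoter windows of GRCm38.p6, which reach from 250 bases before to 50 bases after the gene start as RefSeq gives it. A window was at hand for 33 of the 41 genes. The core, which reads the same on both strands, was found in 10 of the 33 (30.3%), against 8.09% of all 27025 genes with a window and 11.9% of the 9266 of them that reached 1 CPM in every library. The longer palindrome TCACGTGA, which contains the core, was found in Ctsa, Ctsd, Mcoln1, Atp6v0d1, Atp6v0e and Atp6v1a (18.2%), against 1.12% of all genes and 2.3% of those with at least 1 CPM. Lamp1, Gaa, Ctsl and Atp6v0b held the core alone. The stretches around the longer palindrome and the Lamp1 stretch, which had 4 copies of the core within 102 bases, are printed 5′ to 3′ on the strand of the gene, with each CACGTG in capitals.
Ctsa: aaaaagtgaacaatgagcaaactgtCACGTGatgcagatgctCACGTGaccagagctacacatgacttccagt (chr2:164833736-164833808, plus strand)
Ctsd: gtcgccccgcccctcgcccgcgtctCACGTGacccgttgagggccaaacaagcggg (chr7:142387895-142387950, minus strand)
Mcoln1: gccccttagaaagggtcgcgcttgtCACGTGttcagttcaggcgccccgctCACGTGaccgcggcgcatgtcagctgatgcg (chr8:3500423-3500504, plus strand)
Atp6v0d1: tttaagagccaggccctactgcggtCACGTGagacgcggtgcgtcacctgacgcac (chr8:105566037-105566092, minus strand)
Atp6v0e: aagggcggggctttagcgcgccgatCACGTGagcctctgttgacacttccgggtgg (chr17:26676374-26676429, plus strand)
Atp6v1a: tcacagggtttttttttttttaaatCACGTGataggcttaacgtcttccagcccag (chr16:44139360-44139415, minus strand)
Lamp1: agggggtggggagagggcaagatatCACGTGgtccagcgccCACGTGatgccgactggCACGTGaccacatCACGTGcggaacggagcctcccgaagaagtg (chr8:13159075-13159176, plus strand)
A second, separate CACGTG lay in the Ctsd window and is not printed. These matches describe the letters of the windows only, and no binding was measured in GLUTag cells.

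The 41 genes together accounted for 5286 ± 833 CPM (SD, n = 6 libraries), or 0.529% of all counts. Of these, 37 were above 3 counts, and above 1 CPM, in every library. The V0 and V1 subunits summed to 3121 ± 331 CPM and the 18 lysosome genes to 1824 ± 436 CPM. The V1 genes summed to 2071 ± 136 CPM and the V0 genes to 1050 ± 200 CPM. The 4 remaining genes were Atp6v0a4, with 9 counts over the 6 libraries, Ctss, with 4 counts, and Atp6v0d2 and Atp6v1b1, with a count of 0 in all libraries. Where no count was found, up to 3 counts cannot be told from 0, which is 0.0822 CPM in the deepest library and 0.14 CPM in the shallowest. Such limits cover counting error only.

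**Figure D1:**
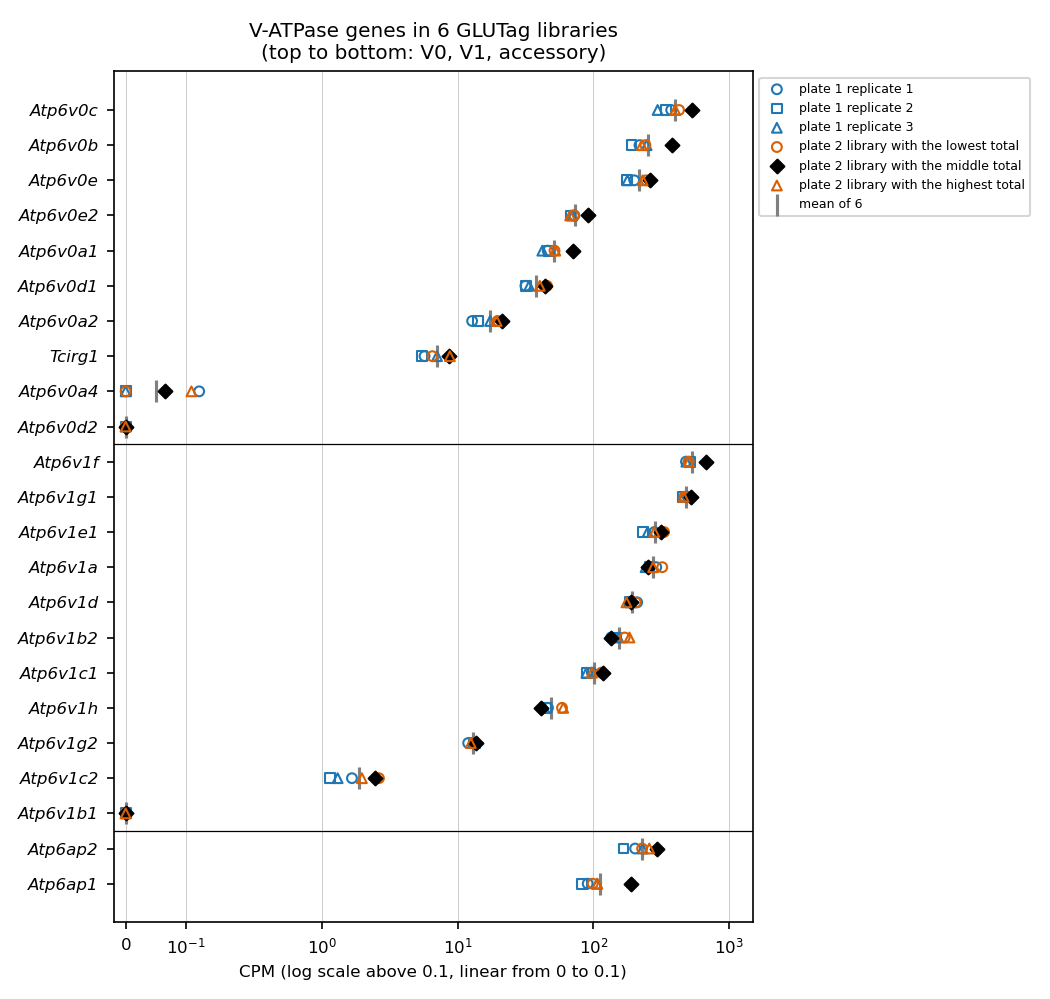
CPM of the 23 V-ATPase genes (log scale above 0.1) in each of the 6 libraries, with plate 1 in blue, plate 2 in orange and the middle plate 2 library as a black diamond, and the mean as a grey bar. Atp6v1f and Atp6v1g1 lie highest, and Atp6v0d2 and Atp6v1b1 lie at 0.

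Every subunit of the pump was represented by at least 1 well detected gene. With paralogs summed, the F subunit of the central stalk had the highest level, 527.8 ± 75.9 CPM (SD, n = 6), followed by the G subunit of the peripheral stalks with 490.4 ± 27.9 CPM and the proteolipid c of the membrane ring with 395.9 ± 81.7 CPM. Next came e with 289.0 ± 42.7 CPM, E with 281.8 ± 37.2 CPM and A, which binds and hydrolyses ATP, with 273.3 ± 29.0 CPM. The e, E and A subunits were not ordered in the same way in all libraries, e being above E in 3 of 6 and E above A in 4 of 6. The second ring proteolipid c″ had 250.8 ± 66.6 CPM, below A on average but above D in all 6 libraries, and D had 192.1 ± 13.1 CPM. B had 154.0 ± 19.8 CPM, C had 102.8 ± 13.0 CPM and a had 76.10 ± 13.6 CPM. The lowest were H, a regulatory subunit of V1, with 49.00 ± 8.21 CPM and d, which joins the stalk to the membrane ring, with 37.91 ± 6.28 CPM. F was thus 13.9 times d on average. Neighbours in this order overlapped in range over the 6 libraries except B with C and a with H, but inside single libraries G was above c, c above e, c″ above D, B above C, C above a and a above H in 6 of 6. Without the middle plate 2 library A came to 277.5 CPM, e to 275.8 CPM and E to 275.4 CPM, which put A before e and E, while c″ came to 224.8 CPM and F to 497.3 CPM and the other subunits kept their places. These levels are of transcripts, and the number of each subunit in the complex is not equal.

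Atp6v1f (ENSMUSG00000004285, chromosome 6 of GRCm38, 29467718 to 29470512, plus strand) had 480.4, 515.7 and 483.4 CPM on plate 1 and 502.7, 680.2 and 504.4 CPM on plate 2, in the order of the names of the libraries (replicates 1, 2 and 3, then the lowest, middle and highest total). The middle library was the highest, and the other 5 lay within 480.4 to 515.7 CPM. Atp6v1g1 (ENSMUSG00000039105, chromosome 4, 63544772 to 63550750, plus strand) had 494.9, 455.9, 458.0, 467.7, 526.4 and 461.7 CPM. Its spread was among the narrowest of the tested genes here, a coefficient of variation of 5.83%, and Atp6v1g2, its paralog, had 5.16%. Atp6v0c (ENSMUSG00000024121, chromosome 17, 24163866 to 24169702, minus strand) had 373.9, 342.3, 297.0, 426.9, 534.8 and 400.3 CPM. All plate 2 values lay above those of plate 1, as for 35.2% of all genes tested. After scaling for the composition of each library (TMM) they no longer did. Atp6v0b, for c″, had 218.2, 190.7, 246.5, 241.5, 380.6 and 227.0 CPM, and was below Atp6v0c in each library.

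Genes were compared with each other inside each library, on log2(CPM + 1), and the 6 differences were tested by an exact permutation test of their signs (two-sided). Of 16 pairs, 3 set a gene against a paralog at or near 0 (Atp6v1b1, Atp6v0d2 and Atp6v0a4), so that their sign was fixed and they are given as values only. The other 13 had the same direction in 6 of 6 libraries, and each reached p = 0.031, the smallest this exact test can give with 6 libraries, which was also the value after Benjamini-Hochberg adjustment over the 13. The test treats the 6 libraries as independent.

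Of the 4 genes for the membrane subunit a, which directs the pump to its compartment, Atp6v0a1 was the main one. Atp6v0a1 (ENSMUSG00000019302, chromosome 11, 101009452 to 101063719, plus strand) had 46.050, 47.140, 42.06, 51.74, 70.48 and 52.37 CPM. Atp6v0a2 had 12.790, 14.050, 17.34, 19.69, 21.12 and 19.38 CPM. Tcirg1, which encodes a3, an isoform known from osteoclasts, had 5.710, 5.435, 7.056, 6.516, 8.604 and 8.770 CPM. The 3 genes did not overlap. Atp6v0a1 supplied 67.81% ± 3.37 (SD, n = 6) of the counts of subunit a, Atp6v0a2 22.89% ± 2.59 and Tcirg1 9.237% ± 1.19. Atp6v0a1 was above Atp6v0a2 by 1.52 ± 0.222 and above Tcirg1 by 2.71 ± 0.221, and Atp6v0a2 above Tcirg1 by 1.20 ± 0.151, on the log2(CPM + 1) scale (SD, n = 6). Atp6v0a4, for the isoform of kidney intercalated cells, had between 0 and 4 counts per library, and the summed counts of Atp6v0a1 were 957 times its own (95% counting interval 504 to 2090). The span of Atp6v0a4 overlaps D630045J12Rik on the same strand, so even these few counts are uncertain.

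Subunits B, d, C and G each drew almost wholly on 1 gene. Atp6v1b2, for the B subunit of most tissues, had 134.9, 148.1, 152.6, 169.9, 134.4 and 184.3 CPM, and Atp6v1b1, the B isoform of kidney and inner ear, had none. Atp6v1b2 was at least 1080-fold higher, taking Atp6v1b1 at the limit of 3 counts per library and the library with the lowest ratio, and Atp6v1b1 made up at most 0.0145% of the pooled B counts (upper 95% limit, exact Clopper-Pearson). Atp6v0d1, the widespread d isoform, had 31.59, 32.08, 33.64, 45.51, 44.35 and 40.31 CPM, and Atp6v0d2, an isoform of osteoclasts and kidney, had none. Atp6v0d1 was at least 240-fold higher than Atp6v0d2 on the same terms, and Atp6v0d2 made up at most 0.0583% of the pooled d counts. Atp6v1c1 had 97.36, 89.65, 88.83, 114.3, 118.2 and 97.59 CPM and supplied 98.22% ± 0.378 of the C counts. Its paralog Atp6v1c2 had 1.667, 1.149, 1.308, 2.635, 2.458 and 1.973 CPM, lower by 5.17 ± 0.153 on the log2(CPM + 1) scale. Atp6v1c2 overlaps Pdia6, which had 249.6 CPM, on the opposite strand, and the strand setting of the counting is not given in the sources used here, so reads of Pdia6 could enter the low counts of Atp6v1c2.

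For the G subunit, Atp6v1g1 supplied 97.34% ± 0.186 (SD, n = 6) and Atp6v1g2, the isoform known from neurons, 2.661% ± 0.186. Atp6v1g2 had 11.96, 13.08, 13.46, 13.39, 13.75 and 12.50 CPM, from 287 to 456 counts per library, and its span overlaps Nfkbil1, with 2.59 CPM, on the opposite strand. Subunit e was divided between its 2 genes. Atp6v0e had 199.9, 176.6, 177.9, 244.8, 263.0 and 230.6 CPM, and Atp6v0e2 had 72.39, 67.91, 69.72, 71.79, 91.80 and 67.45 CPM. Atp6v0e supplied 74.38% ± 2.44 of the e counts and lay above Atp6v0e2 by 1.53 ± 0.186 on the log2(CPM + 1) scale. Between the catalytic subunits, Atp6v1a had 290.2, 258.9, 242.3, 321.2, 252.1 and 275.0 CPM and exceeded Atp6v1b2 by 0.826 ± 0.189, although the subunits stand in equal number in the ring. Within V0, Atp6v0c exceeded Atp6v0b by 0.668 ± 0.236 and Atp6v0d1 by 3.34 ± 0.180.

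**Figure D2:**
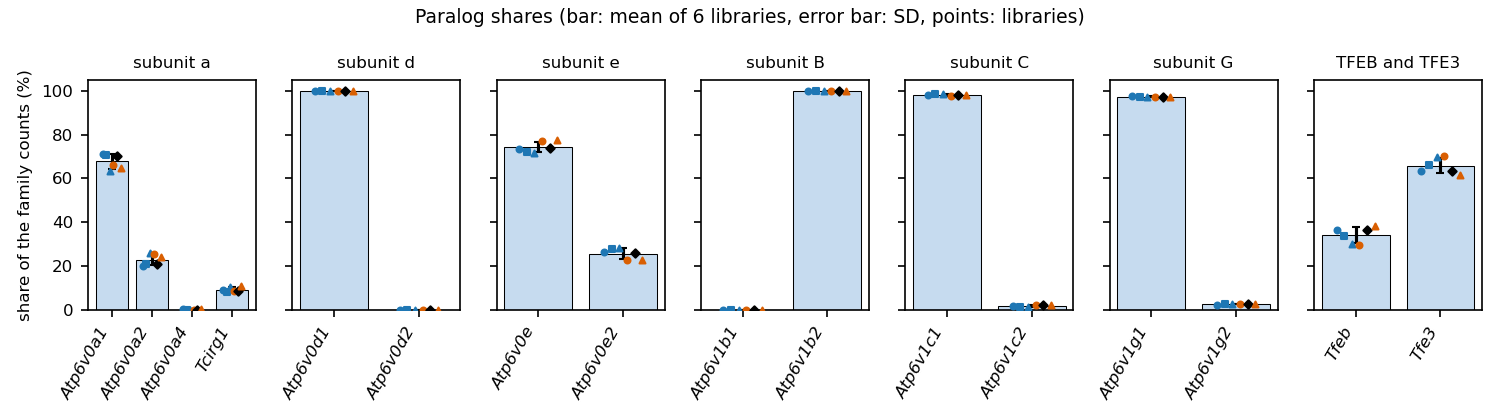
Share (%) of the counts of each family that came from each paralog, as the mean of 6 libraries (bars, starting at 0) with the SD and the 6 libraries as points (plate 1 blue, plate 2 orange, middle library black). Subunits d, B, C and G come almost wholly from 1 gene, whereas a, e and the TFEB and TFE3 pair are divided.

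Of the accessory proteins, which assemble with V0, Atp6ap2 (the prorenin receptor) had 202.8, 166.6, 230.1, 228.3, 292.4 and 257.8 CPM. Atp6ap1 had 90.73, 81.92, 106.4, 98.78, 189.2 and 106.6 CPM. Atp6ap2 was the higher by 1.06 ± 0.230 on the log2(CPM + 1) scale, and the difference was smallest in the middle library, where Atp6ap1 was far above its other values.

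Of the lysosome genes, Psap, which encodes the precursor of the saposins that help to degrade sphingolipids, had the highest level. Psap (ENSMUSG00000004207, chromosome 10, 60277627 to 60302597, plus strand) had 425.5, 374.1 and 410.4 CPM on plate 1 and 640.8, 1004 and 636.5 CPM on plate 2, a mean of 581.8 ± 237 CPM (SD, n = 6). The plates did not overlap, plate 2 being higher, as for 35.2% of all genes tested in CPM. It lay at the percentile 98.1 of the 12360 genes whose CPM was 1 or more in all libraries. Npc2, the soluble carrier of cholesterol, had 154.2, 133.5, 153.9, 185.2, 266.3 and 158.1 CPM, and Npc1, the membrane protein that takes cholesterol from it, had 5.418, 5.877, 6.682, 7.264, 10.19 and 7.893 CPM. Npc2 was above Npc1 by 4.41 ± 0.175 on the log2(CPM + 1) scale, 24.3 times as a ratio of mean CPM. Npc1 overlaps Rmc1, with 6.026 CPM, on the opposite strand, so its low level is uncertain. The hydrolases Hexa and Gaa and the progranulin gene Grn were within a narrow band, at 44.42 ± 7.55, 44.22 ± 17 and 42.47 ± 15.6 CPM, and their ranges overlapped.

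Among the cathepsins, Ctsl, a cysteine protease, was the highest. Ctsl (ENSMUSG00000021477, chromosome 13, 64359337 to 64370890, minus strand) had 352.8, 349.8, 335.5, 298.6, 215.6 and 365.1 CPM. Its lowest value was in the middle library, unlike most of the genes here. Ctsd, the main aspartyl protease of the lysosome, had 94.73, 89.87, 104.5, 103.2, 193.6 and 92.55 CPM. Ctsz had 93.68 ± 28.3 CPM and Ctsb 82.36 ± 24.0 CPM, each as mean ± SD over 6 libraries. Ctsa, a serine carboxypeptidase that also protects other hydrolases, had 29.84, 28.50, 29.30, 42.12, 65.41 and 39.25 CPM. Ctsl was above each of the others in every library. Ctss, the cathepsin of antigen-presenting cells, had at most 2 counts in any library, beside the low macrophage markers. Counts of Ctsl departed from whole numbers by more than 0.05 in all 6 libraries, which occurs where reads are divided between transcripts of more than 1 gene, and Ctsb and Ctsz each overlap a gene on the opposite strand, Fdft1 with 91.7 CPM and Nelfcd with 54.33 CPM.

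Of the membrane proteins, Lamp1 (ENSMUSG00000031447, chromosome 8, 13159161 to 13175338, plus strand) had 133.2, 116.9, 123.9, 169.6, 218.2 and 173.5 CPM. Lamp2 had 57.10, 39.81, 48.50, 57.19, 70.10 and 66.84 CPM, and Cd63, a tetraspanin of late endosomes and lysosomes, had 39.90, 34.68, 42.50, 33.67, 58.47 and 43.29 CPM. Counts of Cd63, like those of Ctsl, departed from whole numbers by more than 0.05 in all 6 libraries. Lamp1 was above Lamp2 by 1.44 ± 0.158 on the log2(CPM + 1) scale and did not overlap with it. The regulators were low but detected. Tfe3 had 9.044, 10.34, 10.09, 11.82, 12.87 and 10.11 CPM, and Tfeb had 5.210, 5.258, 4.346, 5.021, 7.408 and 6.249 CPM, from 93 to 229 counts per library. Tfe3 supplied 65.85% ± 3.55 of the sum of both and was the higher in 6 of 6 libraries, by 0.839 ± 0.197. Mcoln1, which encodes the lysosomal calcium channel TRPML1, had 8.752, 6.981, 9.579, 7.727, 13.94 and 10.44 CPM.

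**Figure D3:**
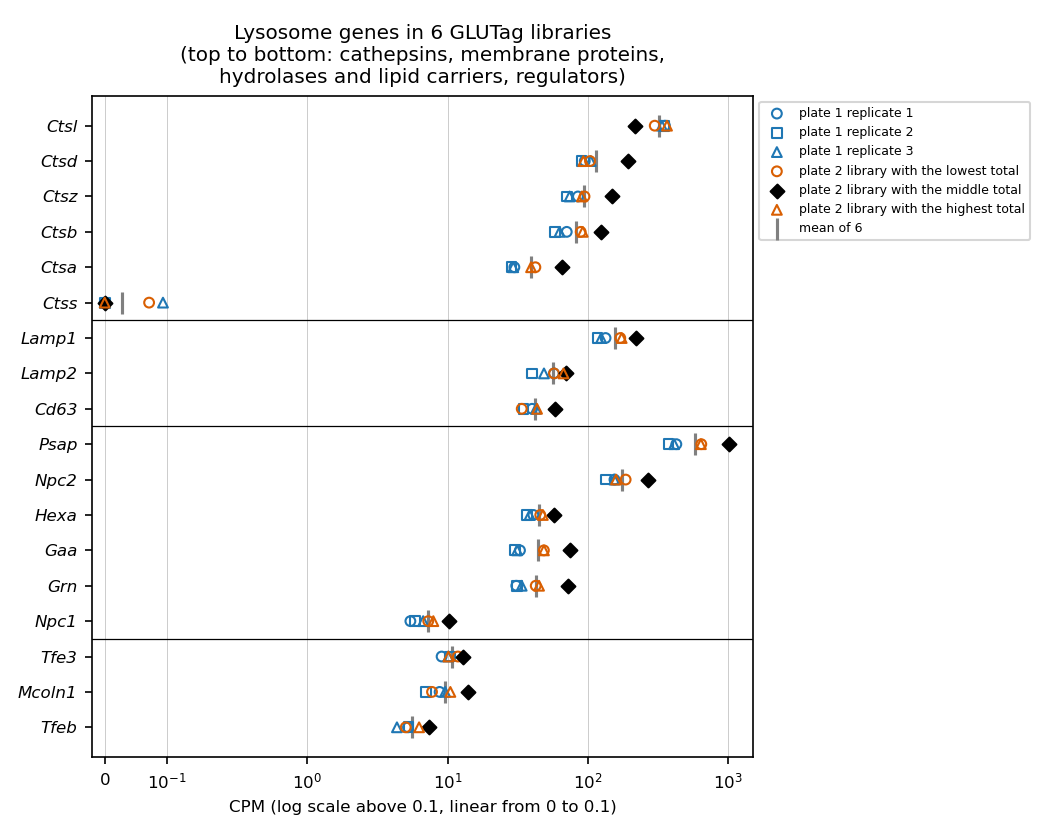
CPM of the 18 lysosome genes (log scale above 0.1) in each of the 6 libraries, with symbols as for the V-ATPase genes. Psap and Ctsl lie highest, Ctss lies near 0, and the black diamond of the middle library is the rightmost point for most genes but the leftmost for Ctsl.

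A further list of 71 genes of the same pathway was read in the same way, namely V-ATPase assembly and regulatory genes, lysosomal hydrolases, lysosomal membrane proteins, and sorting and signalling genes. The highest 5 were Laptm4a with 366.9 ± 41.3 CPM, Scarb2, the receptor that carries glucocerebrosidase to the lysosome, with 254.5 ± 73.5 CPM, Ids (iduronate sulfatase) with 229.0 ± 35.3 CPM, Lamtor1, the anchor of the Ragulator complex, with 160.9 ± 15.3 CPM, and Vma21, an assembly factor of V0, with 137.7 ± 20.2 CPM (SD, n = 6). In 5 genes no library had more than 3 counts: Atp6v1e2, Atp6v1g3, Atp6ap1l, Ctsh and Tfec. Atp6v1e2 and Atp6v1g3 are the paralogs of E and G known from testis and kidney. The CACGTG core was in 28.6% of the 56 of these genes with a window and TCACGTGA in 10.7%.

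The plates were compared with edgeR's quasi-likelihood test on all genes. Of 15669 genes tested, 29 passed an adjusted p of 0.05 (0.185%), 2 higher and 27 lower on plate 2. None of the 37 tested V-ATPase and lysosome genes passed it (0 of 37 by edgeR, and also by DESeq2 and by limma-voom), and 7 had an unadjusted p under 0.05 in edgeR, against 2520 of all genes. None of the 64 tested genes of the further list passed in edgeR, where 14 had an unadjusted p under 0.05, or in limma-voom, whereas DESeq2 called 2 of them, Gnptab and Man2b1, both higher on plate 2, beside 3.73% of all genes. The calls in the further list by edgeR were 10 of 64 with no scaling and 4 of 65 without the middle plate 2 library, beside 9.46% and 12.0% of all genes, and 5 of 70 without a filter on low counts, beside 2.02%. The fitted log2 fold changes of the 37 genes ranged from -0.51 to 0.652 with a median of 0.115, beside a median of 0.031 over all genes. The rises with the largest fitted value were Psap (0.65 ± 0.188, SE, edgeR adjusted p = 0.158), Gaa (0.60 ± 0.186, adjusted p = 0.176) and Atp6v1c2 (0.51 ± 0.287, adjusted p = 0.435). On the other side stood Ctsl (-0.51 ± 0.172, adjusted p = 0.200), Atp6v1d (-0.30 ± 0.111, adjusted p = 0.233) and Atp6v1g2 (-0.23 ± 0.142, adjusted p = 0.485). Gaa, the acid glucosidase, had 32.72, 30.22, 31.21, 48.43, 74.30 and 48.45 CPM, and Atp6v1d, for the central stalk, had 210.1, 184.4, 188.1, 205.2, 189.6 and 175.3 CPM. In CPM, Gaa lay wholly higher on plate 2, as did 35.2% of all genes, and Atp6v1d overlapped between plates. In bulk libraries, fewer cells of a kind and less RNA per cell cannot be told apart. The 8 macrophage markers summed to between 1.495 and 2.167 CPM on plate 1 and between 2.006 and 3.524 CPM on plate 2, and the part of such cells in these values was not tested. The 6 osteoclast or intercalated cell markers summed to between 4.126 and 7.197 CPM and between 12.5 and 15.4 CPM, nearly all of it from Slc26a4, with 3.543 to 6.822 CPM on plate 1 and 12.04 to 14.91 CPM on plate 2. Acp5, Calcr and Ocstamp had less than 0.4 CPM in every library.

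By group, the fitted values had these medians, with no gene called. Of the 8 tested V0 genes, 7 had a positive value, with a median of 0.139, and of the 10 tested V1 genes 8 had a negative value, with a median of -0.09. All 6 hydrolase and lipid carrier genes were positive, with a median of 0.351, and so were 4 of 5 cathepsins, with a median of 0.277, Ctsl being the exception. With no scaling beyond the total count the median of all genes moved to 0.299, the V1 genes to 0.178 with 9 of 10 positive, and the V0 genes to 0.404 with 8 of 8 positive. The V1 median lay below, and the V0 median above, that of all genes under either scaling. A change of scaling moves all genes by nearly the same amount, so this is no separate support. Without the middle plate 2 library the V0 genes had 4 of 8 positive and a median of 0.00782, the hydrolases and carriers 4 of 6 and 0.0875, the cathepsins 2 of 5 and -0.033, and the V1 genes 8 of 10 negative and -0.118, beside 0.0102 for all genes. Both accessory genes were positive with 6 libraries and negative without the middle one. The 30 tested hydrolases of the further list had 25 positive values and a median of 0.199 with 6 libraries, and 22 positive values and a median of 0.165 without the middle one.

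**Figure D4:**
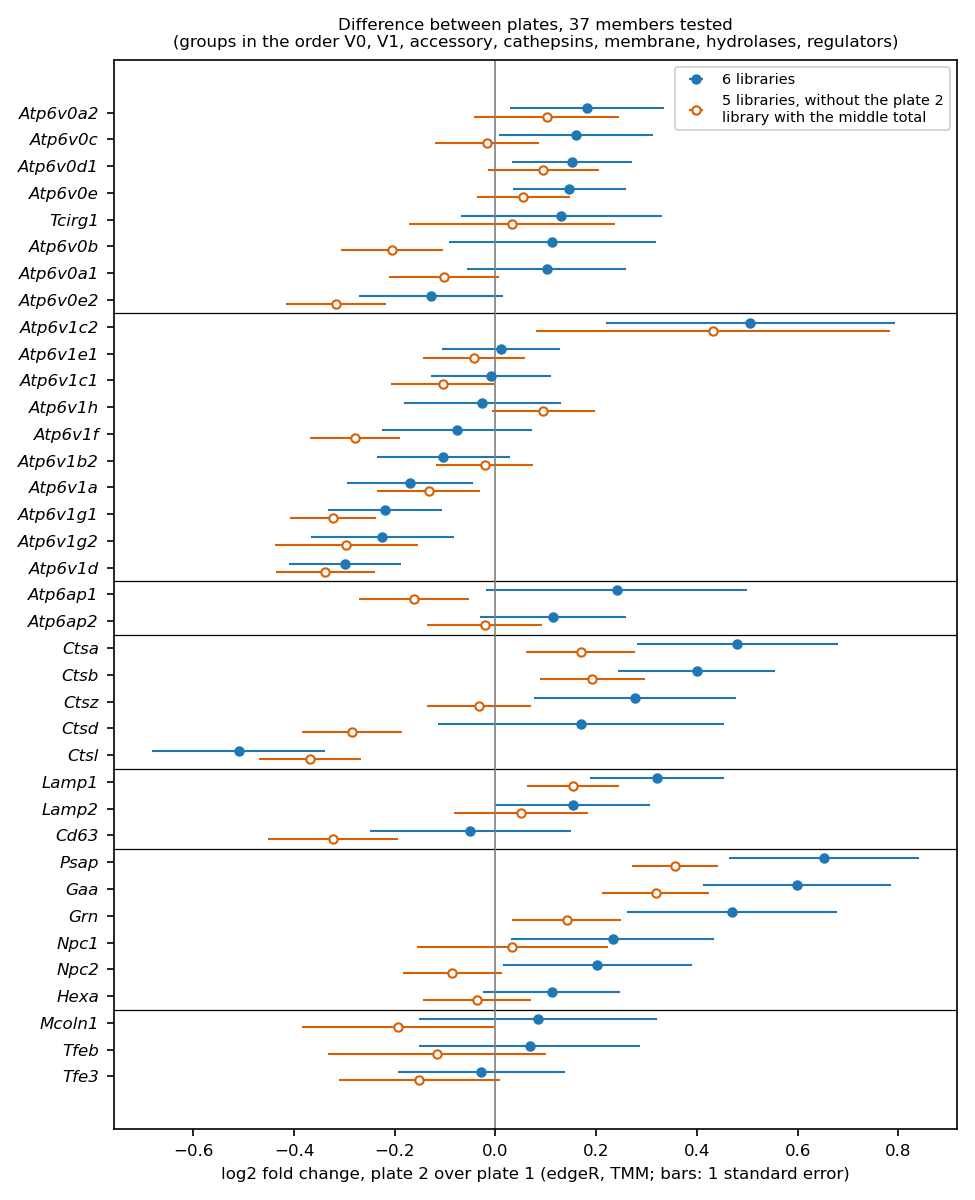
Fitted log2 fold change of plate 2 over plate 1 with 1 standard error for the 37 tested genes, by group, with all 6 libraries (filled blue) and without the middle plate 2 library (open orange). Most cathepsins, hydrolases and accessory genes move towards 0 or below it without that library, whereas the V1 genes stay near or below 0 apart from Atp6v1c2.

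The calls among the 37 genes depended on the middle plate 2 library, on the scaling and on the filter on low counts. Over all genes the number called also changed with the tool and with each library left out. Without the middle plate 2 library 1911 of 15894 genes were called (12.0%), among them 4 of the 37 genes: Psap rose on plate 2 (0.36 ± 0.0848, SE, edgeR adjusted p = 0.0139), and Ctsl (-0.37 ± 0.101, adjusted p = 0.0282), Atp6v1d (-0.34 ± 0.0991, adjusted p = 0.0387) and Atp6v1g1 (-0.32 ± 0.0859, adjusted p = 0.0246) fell. A share of 4 in 37 is near that of all genes. Gaa came to 0.32 ± 0.106 without that library (edgeR adjusted p = 0.0631) and was not called. Over all alternatives, the edgeR, DESeq2 and limma-voom adjusted p ranged from 0.00939 to 0.446 for Psap, from 0.0282 to 0.497 for Ctsl, from 0.0387 to 0.872 for Atp6v1d and from 0.0246 to 0.784 for Atp6v1g1. With no scaling 9.46% of genes and 6 of the 37 were called, all 6 higher on plate 2 (Psap, Gaa, Ctsa, Ctsb, Lamp1 and Atp6v0e), and without a filter on low counts 2.02% of genes and Psap and Gaa were called, both higher. With no scaling the value of Atp6v1g1 came to 0.048 and that of Atp6v1d to -0.03, as the median of all genes moved to 0.299.

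Counted without a model, 18 of the 37 genes (48.6%) had all plate 2 CPM above all plate 1 CPM, beside 35.2% of all genes, and none had all below, beside 4.0%. After TMM scaling, which corrects for the composition of each library, 7 of 37 (18.9%) lay wholly above (Psap, Gaa, Grn, Ctsa, Ctsb, Lamp1 and Atp6v0d1), beside 12.8% of all genes, and 4 (10.8%) wholly below (Ctsl, Atp6v1d, Atp6v1g1 and Atp6v1g2), beside 12.0%. Without the middle library 20 of 37 lay wholly above and 0 wholly below in CPM, beside 52.7% and 6.64% of all genes, and 8 above and 7 below after TMM scaling, beside 23.1% and 20.2%. Summed over the 41 genes, plate 1 had 4680 ± 194 CPM and plate 2 5893 ± 769 CPM (SD, n = 3 each), a ratio of 1.26, which was 1.16 without the middle library and 1.05 with TMM scaling.

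Within plate 2 most of these genes were higher in the middle library than in its neighbours. Of the 37 genes, 32 were higher in it than in the mean of its plate, itself left out, with a median difference of 0.342 on the log2 scale, beside 47.5% of all genes and a median of -0.0249. In the further list 37 of 64 genes were higher, with a median of 0.093. Among these 64 genes 4 lay more than 0.5 above and 10 more than 0.5 below, near the shares of all genes (5.71% and 17.5%). Among the 37 genes 11 lay more than 0.5 above, beside 5.71% of all genes. These were Ctsd, Atp6ap1, Grn, Atp6v0b, Ctsz, Ctsa, Psap, Npc2, Gaa, Cd63 and Mcoln1. More than 0.5 below were Ctsl and Atp6v1h, beside 17.5% of all genes. Ctsd, at 193.6 CPM beside 103.2 and 92.55 CPM, had the greatest difference, 0.977. The library was the highest of the 6 for 28 of the 37 genes, beside 33.5% of all genes. The difference went with the GC content of the last 200 bases of the transcript, with a Spearman's rho of 0.518 over the 37 genes and 0.482 over 15657 genes, given as a description, since all points share the same libraries. The 37 genes had a median GC content of 46.5%, beside 41% for all genes. The comparisons with all genes were not matched for GC content. The 11 genes had a median GC content of 48.5% and the other 26 of 45.2%, and Atp6v1h, at 24.5%, was the lowest. The part of GC content in the differences was not tested.

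**Figure D5:**
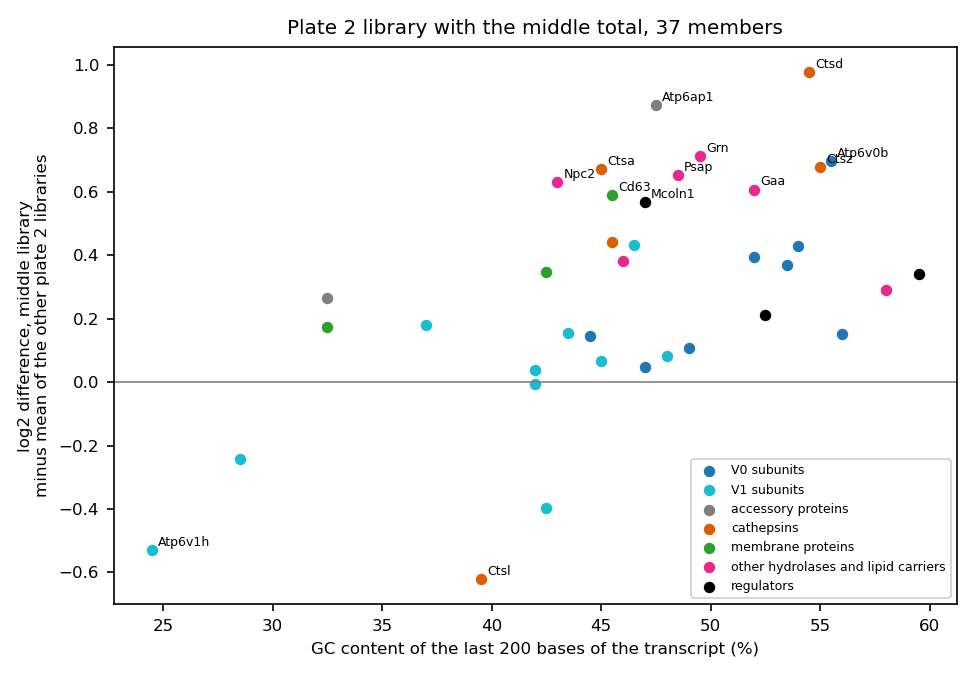
Log2 difference between the middle plate 2 library and the mean of the remaining plate 2 libraries, against the GC content (%) of the last 200 bases of the transcript, for the 37 tested genes coloured by group. Names mark genes more than 0.5 away from 0, and 11 lie above and 2 below.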

How the data were processed

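Poly(A) RNA of GLUTag cells was sequenced in 6 libraries with a 3′ end kit. The authors trimmed the reads (Trim Galore 0.6.4) and assigned them with Salmon 1.5.1 to transcripts of GRCm38 (GENCODE M23), without length correction. The values that the authors deposited are expected counts, summed over the transcripts of each gene and not normalized. Counts were divided by library totals (CPM), and rounded for edgeR 4.0.16 (robust quasi-likelihood test after TMM scaling and filterByExpr, Benjamini-Hochberg over all genes tested, adjusted p of 0.05). Positions are from GENCODE M21, in which 54107 of 54281 identifiers were found, and promoter windows from RefSeq.

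The alternatives were DESeq2 1.42.0, limma-voom 3.58.1, other scalings, filters and pseudocounts (0.1 and 5 beside 1 CPM), and the omission of each library. On simulated data with 200 genes changed 4-fold, edgeR recovered at least 99.5% of them in each of 3 draws of the comparison of plates, fitted on 15669 genes, with between 4.76% and 6.57% false calls. DESeq2 had between 7.55% and 9.91% and limma-voom between 4.31% and 7.83% false calls. The simulated data held no library that stood apart, and the changes were larger than those fitted for the 37 genes (at most 0.652 on the log2 scale). The simulation therefore does not show whether changes of that size would be found. Python 3.11.15, numpy 2.4.6, scipy 1.17.1, pandas 2.3.3 and R 4.3.3 were used.

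The genes and lists were chosen with earlier results of these data known. Values per library are given for the highest 2 and the lowest detected gene of each group, both genes of each pair, the regulators, and the 3 largest rises and falls between plates, with counts for genes at or near 0. Of the further list, the highest 5 are given by their mean, and those with at most 3 counts in every library by name. Every pair of libraries of a plate differed by more than the sampling noise over these genes (a chi-square of 18.5 or more per gene), and all 6 were kept. The GLP-1 secretion and knockdown experiments were not analysed here.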

Additional observations from a re-analysis of the deposited data

Results flagged for a closer look

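In 9 of the 37 genes tested, 1 library lay far from the other 5 by Dixon's criterion, and in each it was the middle plate 2 library, as the highest value. Chance would flag about 1 in 20 genes, and genes of 1 library are not independent. The 37 genes also had a higher median GC content than all genes, and its part in the flags was not tested. Of 15526 genes tested in the same way, 6.48% were flagged, 3.3% with this library as the highest and 1.28% with it as the lowest, beside 24.3% of the 37 genes. For Ctsd the library had 193.6 CPM beside 89.87 to 104.5 CPM in the others, and for Atp6v1f 680.2 CPM beside 480.4 to 515.7 CPM. Atp6v0e2 had 91.8 CPM beside 67.45 to 72.39 CPM, and Atp6ap1 had 189.2 CPM beside 81.92 to 106.6 CPM. Atp6v0b had 380.6 CPM beside 190.7 to 246.5 CPM, and Ctsz had 148.4 CPM beside 70.56 to 94.33 CPM. Grn had 71.97 CPM beside 30.8 to 44.73 CPM, Atp6v0a1 had 70.48 CPM beside 42.06 to 52.37 CPM, and Ctsa had 65.41 CPM beside 28.5 to 42.12 CPM. Without this library the mean of Ctsd would be 96.96 CPM in place of 113.1 CPM, that of Atp6ap1 96.9 in place of 112.3 CPM, that of Ctsa 33.8 in place of 39.07 CPM and that of Grn 36.57 in place of 42.47 CPM. Likewise Ctsz would have 82.74 in place of 93.68 CPM, Atp6v0b 224.8 in place of 250.8 CPM and Atp6v1f 497.3 in place of 527.8 CPM. Atp6v0a1 would have 47.87 in place of 51.64 CPM, and Atp6v0e2 69.85 in place of 73.51 CPM.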

How the results depend on the processing

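The 13 differences between pairs with counts in both genes kept their direction under every pseudocount, plate and left-out library tried, and the paralog shares and summed levels moved by less than the spread between libraries. The number of genes called between plates was 29 and came to 1482 with no scaling beyond the total, 584 with DESeq2, 10 with limma-voom, 545 without a filter on low counts, and from 0 to 1911 with 1 library left out, 1911 being without the middle plate 2 library. The number of the 37 genes called was 0 and came to 6 with no scaling, 2 without a filter, and from 0 to 4 with 1 library left out. Without scaling the median of all genes moved from 0.031 to 0.299, and with it the values of Atp6v1g1 (0.0477) and Atp6v1g2 (0.0423) turned positive. They stayed below that median, which a shift nearly shared by all genes fixes in advance. The split of calls into higher and lower on plate 2 was 2 and 27 and became 1411 and 71 with no scaling. The counts of genes whose plates do not overlap and the subunit levels were also taken without the middle plate 2 library, an alternative chosen after seeing the data. The cause of the other changes was not tested. No paired analysis was possible because the sample labels number the replicates from 1 to 6, with none on both plates, and the numbers that the columns repeat within each plate could not be tied to those of the labels. Atp6v0a4 and Ctss, with 9 and 4 counts in all, entered the comparison of plates only without the filter, and neither was called.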
